A study of Mus musculus with 6 samples.

Results

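The Bcl2 family sets whether a cell keeps its mitochondria intact or opens them to die, and 10 of its genes were followed here in mouse osteoclasts, the bone-resorbing cells of the monocyte lineage. The genes were *Bcl2*, *Bcl2l1*, *Mcl1*, *Bax*, *Bak1*, *Bid*, *Bcl2l11*, *Bad*, *Bbc3* and *Pmaip1*, taken by symbol from a table of 23204 genes, with 1 row for each of the 10. Marrow cells of C57BL/6 mice were kept in M-CSF, a macrophage growth factor, and RANKL was then added, which turns such precursors into osteoclasts. The labels name 3 wild-type samples and 3 of the genotype Tet2Rank–/–; Tet3aRank+/–, whose columns carry the name Tet2KOTet3Het. TET2 and TET3 oxidise methylated cytosine in DNA. What Rank and the a of Tet3a stand for, in which cells the alleles were deleted, and the age of the mice are not spelled out in the labels. Each genotype has samples of both sexes, which the columns do not name. DNA methylation and cell death were not analysed here. The first number in a column name serves here as the library's name: libraries 1, 4 and 6 were wild type, and 2, 3 and 5 are called mutant as labelled.

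The family works by protein binding. BCL2, BCL-xL (the product of *Bcl2l1*) and MCL1 hold the other members in check and keep cells alive, while BAX and BAK form the pores that release cytochrome c from mitochondria and start the caspases. The BH3-only proteins BID, BIM (from *Bcl2l11*), BAD, PUMA (from *Bbc3*) and NOXA (from *Pmaip1*) sense stress, and they block the survival proteins or switch on BAX and BAK. Osteoclasts are short-lived, and BIM, MCL1 and BCL-xL are known regulators of their survival. Much of the control of these proteins lies in splicing, cleavage, phosphorylation and turnover, which counts summed over a whole gene do not show.

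Total counts per library lay between 8794973 and 14267135, and the totals of the genotypes overlapped. The targeted *Tet2* was lower in the mutant libraries (45.5 to 58.2 CPM against 71.7 to 80.9 CPM), while *Tet3* was not (141 to 163 CPM against 121 to 145 CPM), so the genotype is written as labelled. CPM is the share of a library's counts on the per-million scale, with TMM scaling between libraries. All 14 osteoclast markers listed were above 1 CPM in every library, but their summed level differed widely, from 16976 to 42901 CPM in wild-type and from 4079 to 14090 CPM in mutant libraries. The sum of 12 macrophage markers lay between 12532 and 21076 CPM in wild-type and between 23288 and 29551 CPM in mutant libraries. Neither sum overlapped between the genotypes. The sum of 7 mast cell, erythroid and megakaryocyte markers did not either, at 23.4 to 55.3 CPM in wild-type and 99.0 to 190.03 CPM in mutant libraries. Only 2 of these 7 were above 1 CPM in every library, and 2 were lower in the mutant mean. *Cpa3*, *Hba-a1*, *Hbb-bs* and *Gata1* had no counts in at least 1 library, so this sum can rest on few genes. The sum of 9 neutrophil markers overlapped (248 to 889 against 435 to 1352 CPM), and none of the 9 was lower in the mutant mean. Sums of 10 stromal and osteoblast markers (1147 to 3054 against 1033 to 4182 CPM) and 7 dendritic cell markers (708 to 1749 against 1420 to 5226 CPM) also overlapped. So did that of 9 lymphocyte markers (55.9 to 229 against 181 to 277 CPM). In bulk RNA, fewer cells of a type and less RNA per cell cannot be told apart. The column names of libraries 5 and 6 hold a second number, and those of libraries 1 to 4 do not. This split has each genotype on both sides, and "naming batch" refers to it; what it stands for is not in the labels.

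None of the 10 genes passed an adjusted p of 0.05 in edgeR's quasi-likelihood test with genotype as the only term, a threshold that 0.0712% of the 14040 genes tested passed. *Bid* stood out of the 10 with the smallest p. Its level was 29.8 CPM ± 1.54 (SD, n = 3) in mutant libraries against 15.7 CPM ± 3.10 (SD, n = 3) in wild type, and it rose in the fit with the naming batch as a term and in DESeq2. *Bax* rose in DESeq2. At an unadjusted p under 0.05 the count was 3 of the 10 members (*Bid*, *Bax* and *Bcl2l1*, all higher), where 19.6% of all genes tested fell below it. The levels of 4 of the 10 (*Bid*, *Bax*, *Bcl2l1* and *Bad*) did not overlap between the genotypes, against 26.8% of all genes tested; 3 of these were higher in mutant libraries, against 9.91% of all genes. With the naming batch as a term, 1 of the 10 passed, and 8.68% of all genes did (3.08% as a rise). In DESeq2, 2 of the 10 passed, and 12.0% of the 11857 genes that it gave an adjusted p did (5.58% as a rise). Over the 10 genes, 6 had a log2 fold change above 0, with a median of 0.08, where the median of all genes tested was -0.03.

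*Bid* and *Bax* are the members whose change passed in at least 1 of these fits, so the DNA just before their starts is shown. *Bid* (ENSMUSG00000004446) lies at chr6:120891930-120916853 and *Bax* (ENSMUSG00000003873) at chr7:45461697-45466898, both on the minus strand, by the coordinates of the deposited table. The sequences are RefSeq's, build GRCm38.p6, both read 5′ to 3′ on the minus strand and ending at the base before the gene's deposited start. Capitals mark each CpG, the dinucleotide on which TET enzymes act when it is methylated. Methylation of these bases was not measured here.
*Bid*, chr6:120916854-120917074: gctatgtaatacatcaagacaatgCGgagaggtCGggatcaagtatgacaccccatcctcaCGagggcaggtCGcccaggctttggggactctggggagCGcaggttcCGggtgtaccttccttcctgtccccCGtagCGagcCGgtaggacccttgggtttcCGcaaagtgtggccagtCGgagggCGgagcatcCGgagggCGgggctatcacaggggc
*Bax*, chr7:45466899-45467148: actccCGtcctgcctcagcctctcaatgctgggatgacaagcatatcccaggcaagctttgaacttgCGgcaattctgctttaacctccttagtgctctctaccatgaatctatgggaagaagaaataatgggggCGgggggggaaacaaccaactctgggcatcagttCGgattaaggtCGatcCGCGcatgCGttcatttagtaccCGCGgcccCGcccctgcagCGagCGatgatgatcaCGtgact
The *Bid* window is 221 bases long and holds 14 CpG. Of the 32851 RefSeq windows of that length, 24.1% hold as many, and their median is 5. The *Bax* window of 250 bases also holds 14 CpG, as many as 29.4% of all windows of its length, whose median is 6. The letters CG read the same on both strands. Promoter windows of 300 bases were matched for 9 of the 10 members, with 15 start sites in all; *Pmaip1* had no entry. They held between 1 CpG, at 1 of the 3 start sites of *Bcl2l1*, and 44, at *Bcl2*, which 2.25% of all windows reach.

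**Figure D1:**
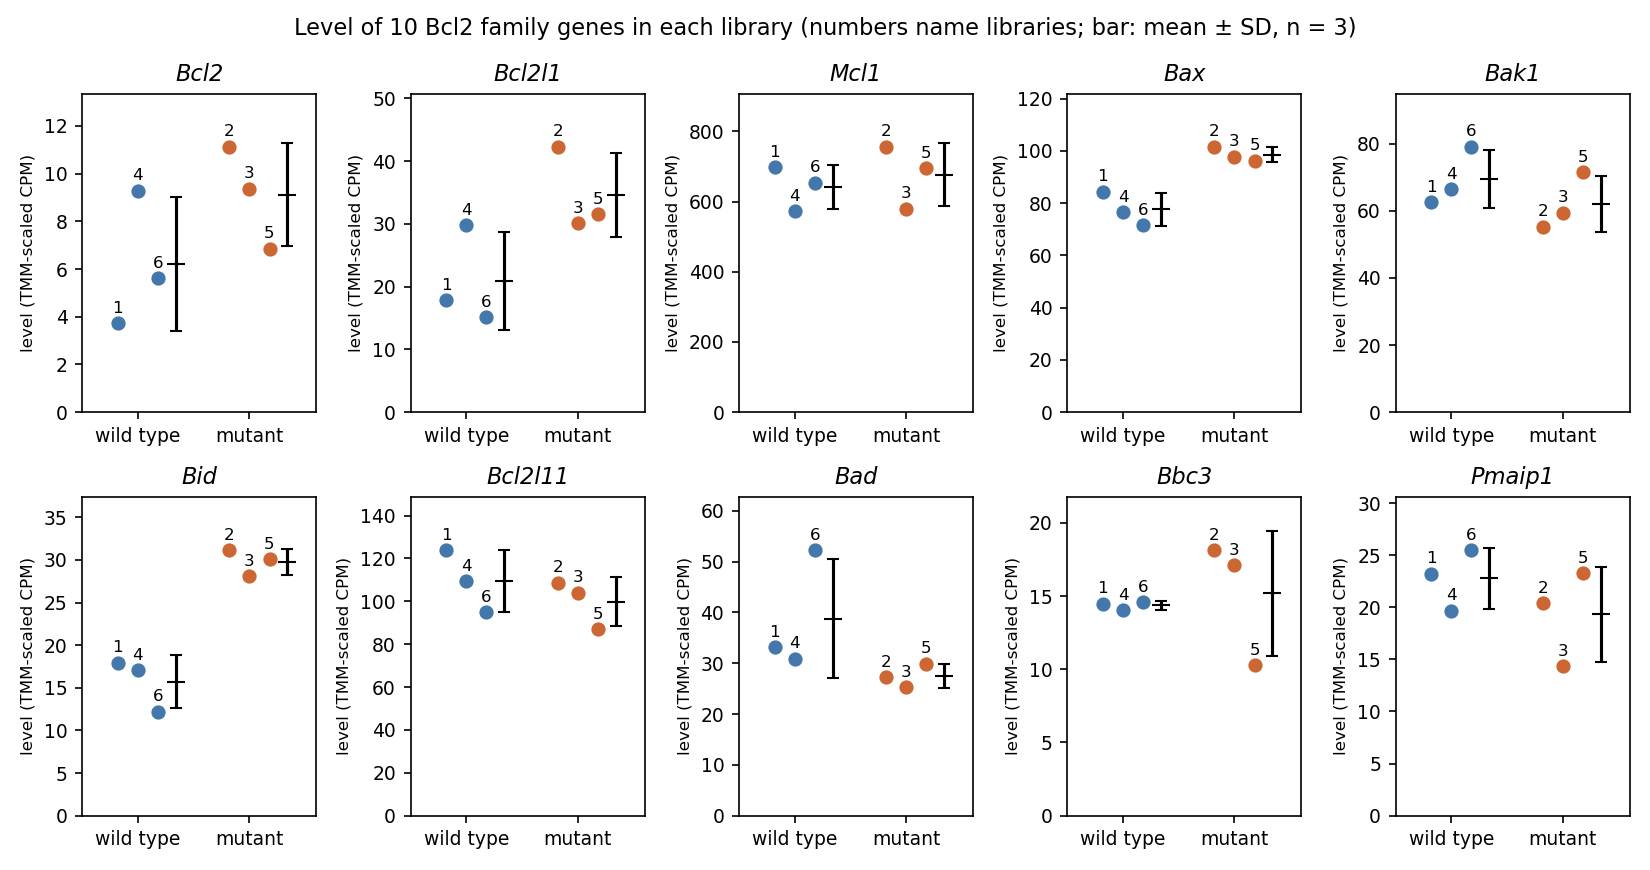
Level of each gene (vertical axis, TMM-scaled CPM from 0) in the 3 wild-type and 3 mutant libraries, each point labelled by its library number, with the mean ± SD beside it. *Bid* lies between 12.2 and 17.96 CPM in wild type and between 28.1 and 31.2 CPM in mutant libraries, and *Bax*, *Bcl2l1* and *Bad* also do not overlap, while the other 6 genes do.

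Levels between genes were compared per length, as RPKM over the union of each gene's annotated exons. *Mcl1* had the highest level in both genotypes, at 188 RPKM ± 18.5 (SD, n = 3) in wild type and 198 RPKM ± 26.2 (SD, n = 3) in mutant libraries. The pore-forming *Bax* (49.2 ± 4.09 and 62.5 ± 1.77 RPKM) and *Bak1* (28.8 ± 3.58 and 25.8 ± 3.49 RPKM) came next in both, and their ranges did not touch those of their neighbours in the order. Below them lay the BH3-only *Bad* and *Bcl2l11*, whose ranges overlapped each other in both genotypes. In wild type *Pmaip1* (8.34 RPKM) and *Bbc3* (6.76 RPKM) followed, and then *Bcl2l1* (4.57 RPKM) and *Bid* (4.43 RPKM), which overlapped. In mutant libraries *Bid* stood at 8.39 RPKM, and it overlapped the next lower *Bcl2l1* (7.55 RPKM), which overlapped *Bbc3* (7.14 RPKM), which overlapped *Pmaip1* (7.08 RPKM). *Bcl2* was lowest in both, at 0.678 RPKM ± 0.309 and 0.996 RPKM ± 0.235 (SD, n = 3 each). With the longest annotated transcript as the length, *Bid* and *Bcl2l1* changed places in the mutant order, as *Bcl2l1* and *Bbc3* did in the wild-type order. The other ranks stayed as they were, but some overlaps of ranges changed. In wild type *Bak1* then overlapped *Bad*, and *Bcl2l1* overlapped both *Pmaip1* and *Bbc3*. In mutant libraries neither *Bid* nor *Bcl2l1* then overlapped *Bbc3*.

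**Figure D2:**
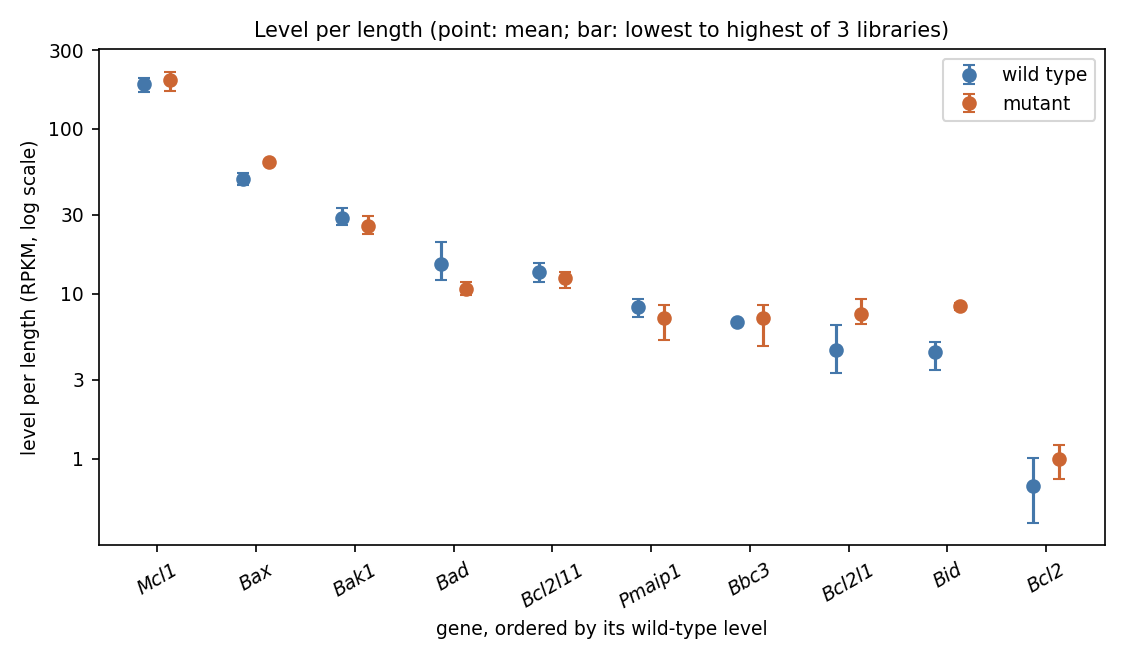
Level per length (RPKM, log scale) of the 10 genes, ordered by wild-type level, with the mean of 3 libraries as the point and the lowest and highest library as the bar, in blue for wild type and orange for mutant. *Mcl1* is highest at 188 and 198 RPKM, *Bcl2* is lowest below 1.22 RPKM in every library, and *Bid* moves from 4.43 to 8.39 RPKM.

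Among the survival genes, *Mcl1* gave nearly all of the transcript level and its genotypes overlapped. The level of *Mcl1* was 697, 573 and 654 CPM in libraries 1, 4 and 6 and 757, 580 and 695 CPM in libraries 2, 3 and 5. Mutant libraries 3 and 5 each lay near a wild-type one, while library 2 lay above all wild-type ones. The highest and the lowest value were in different genotypes. The log2 fold change was 0.08 (SE 0.154, 95% interval -0.29 to 0.45, edgeR adjusted p = 0.879). *Mcl1* made up 97.2% ± 1.30 (SD, n = 3) of the summed RPKM of the 3 survival genes in wild type and 95.9% ± 0.464 (SD, n = 3) in mutant libraries. This share leaves out the rest of the family. There *Bcl2l2* (named after its value was seen) was at 39.6 ± 8.51 CPM in wild-type and 35.1 ± 1.23 CPM in mutant libraries (SD, n = 3 each).

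*Bcl2l1*, whose main product BCL-xL guards mitochondria, was at 17.8, 29.8 and 15.2 CPM in libraries 1, 4 and 6 and at 42.3, 30.1 and 31.5 CPM in libraries 2, 3 and 5. The genotypes did not overlap, but wild-type library 4 lay just under mutant library 3. The log2 fold change was 0.72 (SE 0.283, 95% interval 0.04 to 1.41), and it did not pass (edgeR adjusted p = 0.229, 0.106 with the naming batch as a term, and 0.111 in DESeq2). Leaving out each library in turn moved it between 0.54, without library 6, and 1.10, without library 4. Counts over the gene do not separate BCL-xL from the shorter, death-promoting BCL-xS made by splicing of the same gene. *Bcl2*, the founding survival gene, had only 32, 120 and 70 counts in wild-type libraries 1, 4 and 6 and 159, 92 and 92 counts in mutant libraries 2, 3 and 5. These came to 3.73, 9.29 and 5.61 CPM against 11.1, 9.37 and 6.85 CPM, and the genotypes overlapped. Its log2 fold change of 0.55 had a 95% interval from -0.40 to 1.498 (SE 0.395, edgeR adjusted p = 0.531), the widest of the 10 genes. Of its 9157 exon bases, 558 (6.09%) also lie in the antisense gene *D630008O14Rik*, which was not used here.

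The pore-forming genes differed in sign. *Bax* was at 84.5, 76.7 and 71.7 CPM in libraries 1, 4 and 6 and at 101.7, 97.8 and 96.2 CPM in libraries 2, 3 and 5. Every mutant library lay above every wild-type one, and the mutant mean was 127% of wild type. The log2 fold change was 0.35 (SE 0.0984, 95% interval 0.11 to 0.58, edgeR adjusted p = 0.137), and 0.35 with an adjusted p of 0.0730 in edgeR with the naming batch as a term. In DESeq2 *Bax* rose by 0.38 (SE 0.111, adjusted p = 0.00956). *Bak1* was at 62.6, 66.5 and 79.1 CPM against 55.3, 59.4 and 71.5 CPM, with overlap, a log2 fold change of -0.16 (SE 0.142, 95% interval -0.50 to 0.18) and an edgeR adjusted p of 0.625. *Bax* held 63.0% ± 4.68 of the summed RPKM of both pore genes in wild type and 70.9% ± 3.28 in mutant libraries (SD, n = 3 each), and the ranges of these shares touched, at 58.0% to 67.3% against 67.3% to 73.7%. The annotation places 192 of the 1576 exon bases of *Bax* also in *Gm45808*, on the same strand, and 437 and 177 of the 2407 exon bases of *Bak1* in a pair of genes named *Ggnbp1* on the opposite strand; the *Ggnbp1* gene in the table had at most 66 counts in a library.

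*Bid* showed the largest fold of the 10 genes. BID is cleaved by caspase-8 after death receptor signals, and its shortened form moves to mitochondria and activates BAX and BAK. Wild-type libraries 1, 4 and 6 held 154, 220 and 152 counts of it and mutant libraries 2, 3 and 5 held 445, 276 and 404, or 17.96, 17.0 and 12.2 CPM against 31.2, 28.1 and 30.1 CPM. The lowest mutant library lay well above the highest wild-type one, and the mutant libraries differed little among themselves (coefficient of variation 5.17%, against 19.7% in wild type). The mutant mean was 189% of wild type. The log2 fold change was 0.92 (SE 0.174, 95% interval 0.50 to 1.34, edgeR adjusted p = 0.0797), with a two-sided exact permutation p of 0.1, the smallest that 3 libraries against 3 can give. Any gene without overlap gets that permutation value, and *Bax*, *Bcl2l1* and *Bad* had it too. *Bid* ranked 258 of 14040 genes by p. It passed with the naming batch as a term (0.94, SE 0.162, edgeR adjusted p = 0.0232) and in DESeq2 (0.96, SE 0.216, adjusted p = 0.000364). With any 1 library left out the value lay between 0.78 and 1.03 and did not pass (edgeR adjusted p between 0.132 and 0.237). Within libraries 1 to 4 the log2 difference of mean log2 CPM was 0.76, and between libraries 5 and 6 it was 1.30. *Bid* made up 18.3% ± 0.658 (SD, n = 3) of the summed RPKM of the 5 BH3-only genes in mutant libraries and 9.28% ± 2.32 (SD, n = 3) in wild type.

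Reads of *Bid* could in part belong to a neighbour. Of its 3550 exon bases, 628 (17.7%) also lie in exons of *Bcl2l13* on the opposite strand, and the sources used here do not give whether the counting used strand. *Bcl2l13*, which encodes a mitochondrial member of the wider family, differed in the other direction, at 64.3, 59.3 and 68.6 CPM in libraries 1, 4 and 6 against 39.4, 45.9 and 54.0 CPM in libraries 2, 3 and 5. The marker sums went with *Bid* in its lowest and highest library. Library 6 had the lowest *Bid* level, the highest osteoclast sum (42901 CPM) and the lowest macrophage sum (12532 CPM), and library 2 had the highest *Bid* level, the lowest osteoclast sum (4079 CPM) and the highest macrophage sum (29551 CPM). The macrophage sum put all 6 libraries in the same order as *Bid*: library 2, then 5 (23676 CPM), 3 (23288 CPM), 1 (21076 CPM), 4 (15989 CPM) and 6. Libraries 3 and 1 were close in that sum but at 28.1 and 17.96 CPM of *Bid*. The osteoclast sum did not mirror the order. From its lowest it ran through library 2, 3 (10021 CPM), 5 (14090 CPM), 4 (16976 CPM), 1 (20508 CPM) and 6. How many of all genes share the order of *Bid* was not counted. All 14 osteoclast markers were lower in the mutant mean, and 2 of the 12 macrophage markers were. The part of these markers in the difference of *Bid*, *Bax* and *Bcl2l1* was not tested. Of the lymphocyte markers, *Cd3e* and *Cd3d* had at most 1 count in any library.

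**Figure D3:**
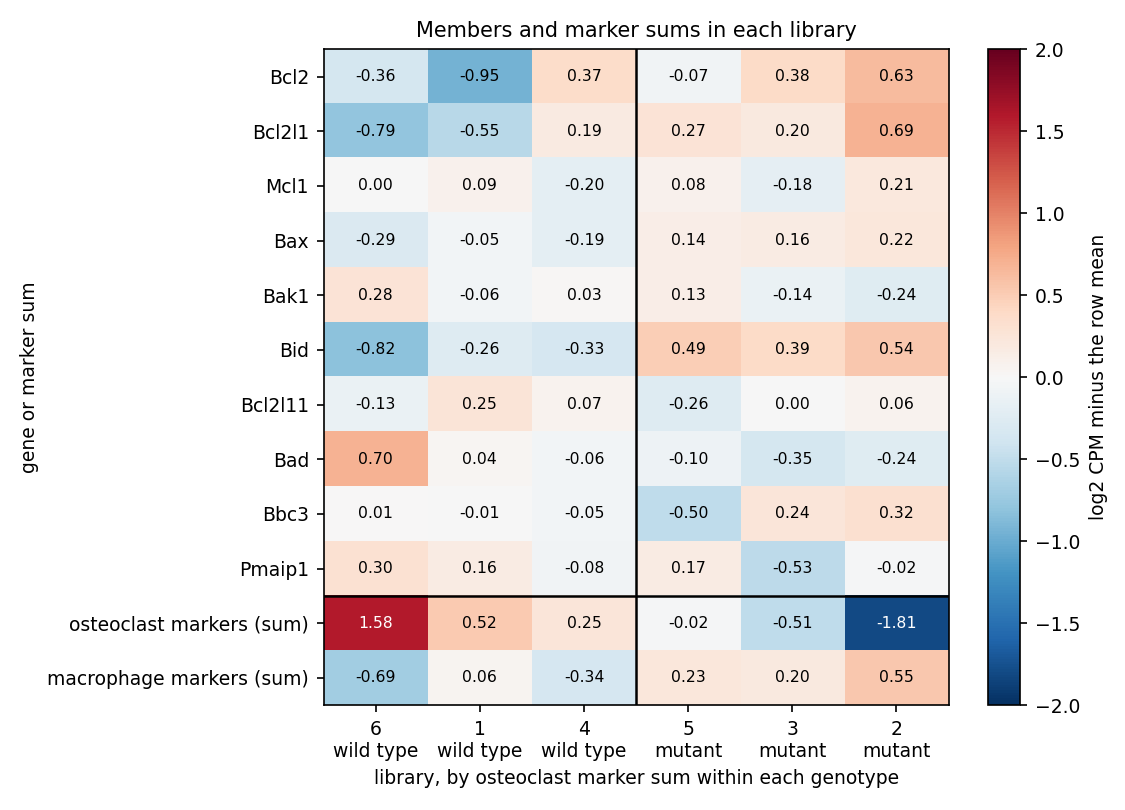
Log2 CPM minus the row mean (colour and printed value) of the 10 genes and of the osteoclast and macrophage marker sums in each library, ordered within genotype by osteoclast sum. *Bid* runs from -0.82 in library 6 to 0.54 in library 2 and *Bad* from 0.70 in library 6 to -0.35 in library 3, while the osteoclast sum runs from 1.58 to -1.81 in libraries 6 and 2.

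The other BH3-only genes did not follow *Bid*. *Bcl2l11*, whose product BIM is known to drive osteoclast death when survival factors are withdrawn, was at 124, 109 and 94.999 CPM in libraries 1, 4 and 6 and at 109, 104 and 87.0 CPM in libraries 2, 3 and 5. The genotypes overlapped, and the log2 fold change of -0.13 had a 95% interval from -0.47 to 0.21 (SE 0.142, edgeR adjusted p = 0.715). *Bad*, whose product binds BCL-xL and is held off by phosphorylation, was at 33.1, 30.9 and 52.3 CPM against 27.2, 25.3 and 29.9 CPM. All mutant libraries lay below all wild-type ones, and library 6 was far above libraries 1 and 4. The log2 fold change of *Bad* was -0.50 (SE 0.219, 95% interval -1.02 to 0.03, edgeR adjusted p = 0.283), and it was -0.20 without library 6. Of the 2558 exon bases of *Bad*, 524 (20.5%) also lie in *Gpr137* on the opposite strand, a gene at 26.8, 26.1 and 33.5 CPM against 24.4, 28.3 and 25.8 CPM.

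*Bbc3*, which encodes the p53 target PUMA, was at 14.5, 14.0 and 14.6 CPM in libraries 1, 4 and 6 and at 18.1, 17.1 and 10.3 CPM in libraries 2, 3 and 5. The wild-type libraries were nearly alike, while mutant libraries 2 and 3 lay above and library 5 below all of them. Its log2 fold change was 0.08 (SE 0.240, 95% interval -0.50 to 0.66, edgeR adjusted p = 0.934), and the sign differed between the naming batches, at 0.31 within libraries 1 to 4 and -0.51 between libraries 5 and 6. *Pmaip1*, which encodes the MCL1-binding protein NOXA, was at 23.2, 19.7 and 25.5 CPM against 20.4, 14.4 and 23.3 CPM, with overlap and a log2 fold change of -0.23 (SE 0.211, 95% interval -0.74 to 0.27, edgeR adjusted p = 0.638).

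**Figure D4:**
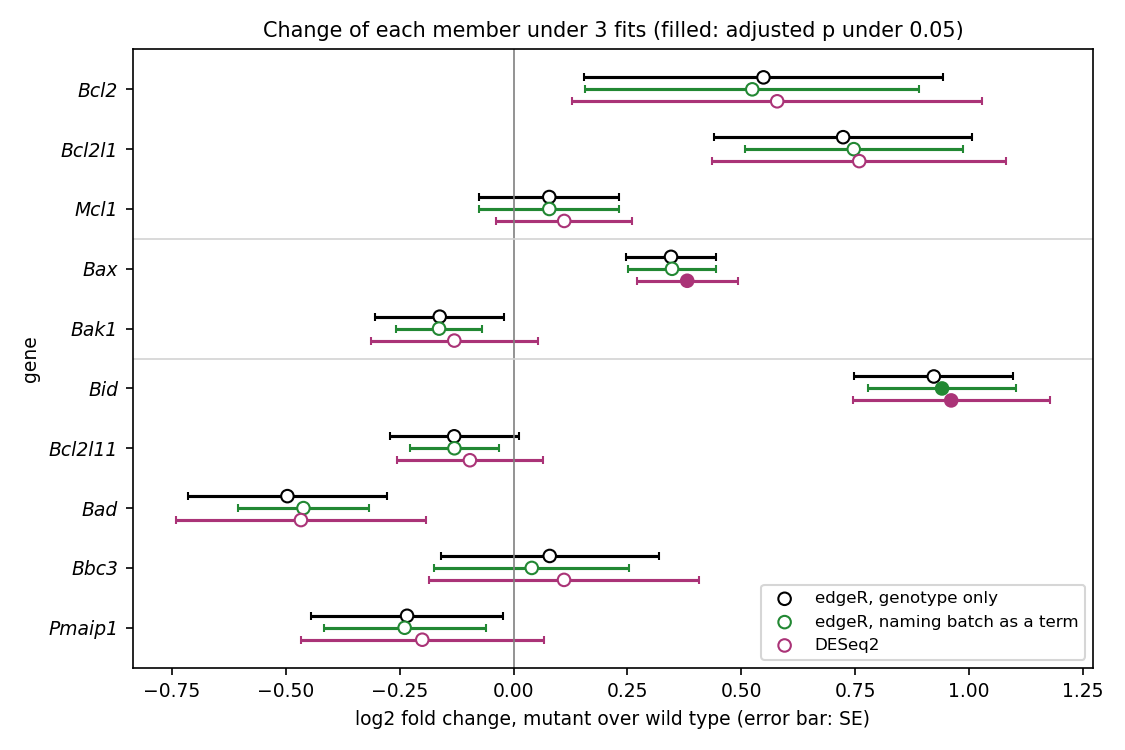
Log2 fold change, mutant over wild type, with its SE, for each gene in 3 fits: edgeR with genotype only (black), edgeR with the naming batch as a term (green) and DESeq2 (purple); filled points have an adjusted p under 0.05. *Bid* is filled in 2 of the 3 fits and *Bax* in 1, and the remaining 8 genes in none.

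Ratios of 1 member to another within a library were taken for 6 pairs, which removes the scaling between libraries. The ratio of *Bcl2l11* to *Bcl2l1* was the 1 of the 6 that did not overlap, with 6.94, 3.66 and 6.27 for libraries 1, 4 and 6 against 2.57, 3.46 and 2.76 for libraries 2, 3 and 5. Its mean was 5.63 ± 1.73 in wild type and 2.93 ± 0.466 in mutant libraries (SD, n = 3 each). Wild-type library 4 lay just above mutant library 3 in this ratio. *Bcl2l1* alone did not overlap either, nor did 26.8% of all genes tested. The share over other pairs of genes was not taken. The ratio of *Bax* to *Bcl2* was 14.5 ± 7.35 and 11.2 ± 2.55, and that of *Bax* to *Bcl2l1* was 4.01 ± 1.247 and 2.90 ± 0.445. *Bcl2l11* to *Mcl1* stood at 0.171 ± 0.0234 and 0.149 ± 0.0274, *Bak1* to *Mcl1* at 0.109 ± 0.0168 and 0.0928 ± 0.0171, and *Bid* to *Bcl2l1* at 0.794 ± 0.218 and 0.876 ± 0.121. These 5 ratios overlapped between the genotypes, and *Bid* and *Bcl2l1*, both higher in mutant libraries, left their ratio within its spread.

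The rest of the family gave no call in edgeR with genotype only. Of 15 further members, 14 had a row in the table and 8 passed the filter on low counts; 0 of these 8 passed, 1 had an unadjusted p under 0.05 (19.6% of all genes did), and their median log2 fold change was -0.14 (-0.03 over all genes tested). *Bnip3l*, a mitophagy receptor gene, was at 146 ± 13.01 against 130.0 ± 15.1 CPM in wild-type and mutant libraries, and *Bmf*, a BH3-only gene tied to the cytoskeleton, at 77.0 ± 0.948 and 71.0 ± 5.83 CPM (SD, n = 3 each). *Bcl2l13* (named after its value was seen) fell with the naming batch as a term (-0.47, edgeR adjusted p = 0.0494, and 0.146 without it), as 5.60% of all genes did. DESeq2 called 0 of the 8, and 1 had an unadjusted p under 0.05, against 20.3% of all genes.

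Of 21 genes of the outer membrane channel, apoptosome, caspases and caspase inhibitors, 15 had a log2 fold change below 0, against 53.2% of all genes tested. Their median was -0.23 over the 21 genes (-0.03 over all genes). In edgeR with genotype only 0 passed, and 8 of the 21 had an unadjusted p under 0.05, all lower, against 12.4% of all genes in that direction. The channel genes *Vdac2*, at 431 ± 62.8 against 294 ± 27.6 CPM, and *Vdac1*, at 342 ± 71.0 against 216 ± 40.5 CPM, had the highest levels (SD, n = 3 each; wild type first). The batch term gave 4 of 21 that fell, against 5.60% of all genes, and DESeq2 gave 5, against 6.44%. Of these, *Cycs*, *Birc2*, *Aifm1* and *Birc3* were named after their values were seen. *Vdac1*, *Cycs*, which encodes cytochrome c, and *Birc2*, which encodes the caspase and NF-kB regulator cIAP1, fell in both. *Aifm1* fell with the batch term, and *Vdac2* and *Birc3*, which encodes cIAP2, fell in DESeq2. *Birc2* was at 78.4, 89.8 and 92.9 CPM in libraries 1, 4 and 6 and at 46.4, 49.8 and 43.3 CPM in libraries 2, 3 and 5. The groups did not overlap, as held for 12 of the 21 genes and for 26.8% of all genes tested. The log2 fold change of *Birc2* was -0.90 (SE 0.109, edgeR adjusted p = 0.0544, 0.0151 with the batch term, and 1.27e-07 in DESeq2). *Cycs* was at 271, 237 and 437 CPM against 77.1, 153 and 206 CPM, and followed the order of the osteoclast sum, with library 6 highest and library 2 lowest.

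Of 12 death receptor and signalling genes tested, 8 lay above 0 (median 0.12), and 0 passed in edgeR with genotype only, with the batch term or in DESeq2; 2, 4 and 3 had an unadjusted p under 0.05, where 19.6%, 25.0% and 20.3% of all genes did. The receptor gene *Tnfrsf1a* was at 151 ± 15.5 against 192 ± 15.4 CPM. *Cflar*, which encodes the caspase-8 inhibitor c-FLIP, was at 124 ± 17.6 against 153 ± 5.02 CPM (SD, n = 3 each). Neither gene's libraries overlapped, as held for 5 of the 12 genes and for 26.8% of all genes tested.

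Of 14 p53 pathway genes, 8 lay above 0 (median 0.06) and 0 passed in edgeR with genotype only, where 3 had an unadjusted p under 0.05, near the 19.6% of all genes. *Sesn1*, a stress response gene, was at 153 ± 48.5 against 253 ± 51.5 CPM and rose with the batch term (0.76, edgeR adjusted p = 0.0243). *Trp53inp1* was at 180.3 ± 22.8 against 129 ± 30.2 CPM (SD, n = 3 each). *Perp* (named after its value was seen), a p53 target that encodes a desmosome protein, was at 5.37, 4.65 and 5.61 CPM in libraries 1, 4 and 6 and at 1.47, 1.73 and 1.19 CPM in libraries 2, 3 and 5. Its log2 fold change was -1.83 (SE 0.347, edgeR adjusted p = 0.0804). *Perp* fell with the batch term (edgeR adjusted p = 0.0316) and in DESeq2 (adjusted p = 0.000589). It had at most 70 counts in a library. Of all genes, 3.08% rose and 5.60% fell with the batch term, and 6.44% fell in DESeq2.

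Of 16 transcription factor genes listed as regulators of members, 10 lay above 0 (median 0.09) and 0 passed in edgeR with genotype only or with the batch term, where 4 and 5 had an unadjusted p under 0.05, against 19.6% and 25.0% of all genes. *Atf4*, of the integrated stress response, was at 233 ± 43.1 against 169.6 ± 26.2 CPM, and *Nfkb1* at 151 ± 13.8 against 142 ± 7.90 CPM (SD, n = 3 each). *Stat5b* (named after its value was seen), a cytokine-activated factor, rose in DESeq2 (0.52, adjusted p = 0.0203). In DESeq2, 6 of the 16 had an unadjusted p under 0.05, against 20.3% of all genes. Of 22 genes that act on member proteins, 9 lay above 0 (median -0.01) and 0 passed in edgeR with genotype only, with 8 at an unadjusted p under 0.05 (19.6% of all genes). *Ywhaz*, a 14-3-3 gene of the kind that holds phosphorylated BAD, was at 409.8 ± 26.0 against 363 ± 42.0 CPM. *Huwe1*, which encodes a ubiquitin ligase of MCL1, was at 336 ± 41.2 against 251 ± 38.2 CPM (SD, n = 3 each). The kinase genes *Rps6ka1* and *Pim1* rose, and *Mapk8* and *Cblb* fell, both with the batch term and in DESeq2, where *Cbl*, which encodes a ubiquitin ligase of BIM in osteoclasts, also rose (named after their values were seen). Of all genes, 3.08% rose and 5.60% fell with the batch term, and 5.58% rose and 6.44% fell in DESeq2. *Cbl* was at 195 ± 24.6 against 277 ± 31.3 CPM (SD, n = 3 each; log2 fold change 0.51, SE 0.143, edgeR adjusted p = 0.136).

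The genes whose pattern over the 6 libraries was most like that of *Bid*, by Pearson correlation of log2 CPM among 10743 genes of at least 5 CPM, were *Gpr65* (r = 0.999), *Taf11* (0.998), *Marcks* (0.998), *Ssh2* (0.995) and *Zcchc24* (0.995). *Gpr65*, an acid-sensing receptor gene, was at 26.0, 23.7 and 14.6 CPM in libraries 1, 4 and 6 and at 59.1, 48.0 and 55.5 CPM in libraries 2, 3 and 5. Those most like *Mcl1* included *Psmb9* (r = 0.988), *Dnase1l1* (0.985), *Klf13* (0.971) and *Zfand2a* (0.971). The points share the libraries and their depth, and with 6 points among so many genes high values of r arise in number, so these names are a description.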

How the data were processed

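RNA from osteoclasts grown from mouse marrow was sequenced, 3 libraries of each genotype. The submitters' processing notes name the mouse build mm10, Bowtie2 2.2.3, TopHat2 2.0.13 and SAMtools 0.1.19. Not given in the sources used here were the program that counted the reads, its strand setting and its annotation. The authors deposited raw whole-number counts per Ensembl gene. Of 23264 rows, 60 were repeats with the same counts and were dropped. Column names give the genotype and no replicate number; the labels give both sexes in each genotype but do not say that every sample is a separate animal, so part of the spread behind the p-values may be technical.

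After filterByExpr and TMM scaling, edgeR 4.0.16 (R 4.3.3) compared the genotypes by its quasi-likelihood test with no other term. Benjamini-Hochberg adjustment ran over the 14040 genes kept, at a threshold of 0.05. All 10 members passed the filter. Each SE was taken as the absolute log2 fold change divided by the root of F, and 95% intervals use the t distribution and are not adjusted. Alternatives were DESeq2 1.42.0, RLE scaling, no filter, the naming batch as a term, libraries 1 to 4 alone and leaving out each library. The edgeR step was tested on simulated data. RPKM divides CPM by the union of exons in GENCODE M21 (GRCm38, the same assembly as mm10), in which 99.8% of identifiers and the start and end of all 10 members matched. Likeness used log2(CPM + 0.5).

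All members were to be named, and of each list the genes called in edgeR with genotype only (the 4 with the smallest p where more than 4 were), or, where none was called, the 2 with the highest mean CPM. Predicted and ribosomal genes and near-identical copies were skipped; 5 genes were named by likeness to the member with the smallest p and to that with the highest CPM, of which 1 is not reported here. The members and lists were chosen with earlier results of these data known.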

Additional observations from a re-analysis of the deposited data

How the results depend on the processing

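Of 120 recomputed log2 fold changes of the 10 members (12 alternatives each), 114 kept their direction and, where tested, their side of the threshold. Library 5 against library 6 is 1 of the 12 alternatives and has no test, so only its direction was compared. Newly past the threshold were 3: *Bid* with the naming batch as a term (0.94) and in DESeq2 (0.96), and *Bax* in DESeq2 (0.38). The 3 that reversed were all of *Bbc3*: -0.041 without library 2 and -0.019 without library 3 (up to 0.29 without library 5), and -0.51 between libraries 5 and 6; the cause was not tested. *Bad* ranged from -0.61 to -0.20 and *Bcl2* from 0.29 (without library 1) to 0.99 (without library 4) over the fits that leave out a library; for *Bad* these were without library 4 and without library 6. Members that rose numbered 0 in edgeR with genotype only, 1 with the batch term and 2 in DESeq2, and 0 fell in any. Over all genes, 7 rose and 3 fell, against 433 and 786 once the naming batch was a term, 46 and 35 without a filter, and 662 and 764 in DESeq2; without a library 0 to 2 rose and 0 to 1 fell. Genes of the 6 lists went from 0 in either direction to 3 that rose and 8 that fell with the batch term, 4 and 8 in DESeq2, and 0 and 1 without a filter. The lists had 8, 21, 12, 14, 16 and 22 genes tested, with *Trp53* and *Tnfrsf10b* in more than 1 list. Of all genes, 3.08% rose and 5.60% fell with the batch term, and 5.58% rose and 6.44% fell in DESeq2. With the longest transcript as the length, 12 of 20 RPKM means moved by more than 1 SD, and 4 of 20 ranks changed. The 12 mean ratios are the same with raw counts by construction, because a library's scaling cancels in them, so this is no check. No paired analysis was possible because the columns of the table carry none of the replicate numbers of the labels. *Bcl2* had the fewest counts, 32 to 159 a library, and how far depth limits it was not tested.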

Other observations

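No member passed for the split between libraries 5 and 6 and libraries 1 to 4, which 2.29% of all genes tested did. In the edgeR fit with genotype and naming batch as terms, *Bad* had a value of 0.46 on the log2 scale, libraries 5 and 6 minus the others (SE 0.150, adjusted p = 0.136) and *Bak1* one of 0.31 (SE 0.0979, adjusted p = 0.131), while *Bcl2l11* had a value of -0.29 (SE 0.106, adjusted p = 0.161). These 3 of the 10 had an unadjusted p under 0.05 (0.0194, 0.0177 and 0.0289 in edgeR), against 23.9% of all genes. *Bid*, at -0.23 (SE 0.171, adjusted p = 0.453), and *Mcl1*, at 0.05 (SE 0.162, adjusted p = 0.884), did not. The genotype values in the same fit were -0.16 for *Bak1*, -0.13 for *Bcl2l11* and 0.94 for *Bid*.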
